A study of Mus musculus with 8 samples.

Results

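In all, 10 genes of the calcineurin, NFAT and RCAN system were compared between splenic B cells of mice carrying human HGAL and of wild-type littermates. They were Rcan1, Rcan2, Rcan3, Nfatc1, Nfatc2, Nfatc3, Ppp3ca, Ppp3cb, Ppp3r1 and Cabin1, 10 of 19937 genes measured by a probe set paired with a single gene symbol. The probe set of each gene was chosen by the highest mean over the 8 arrays. All 10 genes were found, and each had 1 such probe set, so the choice by mean discarded none. The means that the rule used were 8.27 for Rcan1, 6.02 for Rcan2, 7.62 for Rcan3, 10.88 for Nfatc1, 9.31 for Nfatc2 and 11.64 for Nfatc3, as log2 intensities. They were 11.43 for Ppp3ca, 10.68 for Ppp3cb, 9.34 for Ppp3r1 and 9.80 for Cabin1. Levels of different probe sets depend on their probes and are not set against each other below.

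The Sca1-HGAL group holds 4 arrays from adult CBAxC57BL/6J mice that express human HGAL (GCET2), an adaptor known from germinal centre B cells, from the Sca1 (Ly-6E.1) promoter. The Control group holds 4 arrays from wild-type littermates of the same strain. The labels call the HGAL mice knock-in in one place and transgenic in another, and the Sca1 promoter is not restricted to B cells. Flow cytometry sorted spleen cells with CD22 and B220 on their surface. Their total RNA went onto Mouse Gene 1.0 ST arrays (Affymetrix), with 1 sample on each. No treatment is named. Nothing in the labels ties an array to its own mouse. The spread behind the p-values may thus be technical in part or, within the Sca1-HGAL group, in full. Precision is limited by the 4 arrays per group.

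Antigen binding to the B-cell receptor activates phospholipase C gamma 2, which releases calcium from internal stores and opens ORAI channels in the plasma membrane. Calcium and calmodulin then switch on calcineurin, a phosphatase built from a catalytic A subunit (Ppp3ca, Ppp3cb) and a calcium-binding B subunit (Ppp3r1). Calcineurin removes phosphates from NFAT factors, which move to the nucleus and start transcription, until kinases send them back to the cytosol. RCAN proteins and Cabin1 bind calcineurin and restrain it. In mice, NFATc1 is known for its part in the development of B-1a cells.

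The sorted cells carried B-cell transcripts on every array. The mean log2 level of the B cell list, of which 8 of 9 genes were measured and all 8 exceeded log2 6, was 12.71 to 12.76 in Sca1-HGAL arrays and 12.77 to 12.83 in Control arrays. The median intensity of an array ranged from 145.2 to 151.4. Control replicates 2 and 4 alone had high Xist, a transcript of female cells, with 12.17 and 12.18. The other 6 arrays had 5.28 to 5.65, so sex appears unbalanced between the groups. The Control arrays thus appear not to come all from the same animal. Sca1-HGAL replicate 3 stood closer to the Control arrays (mean correlation over probe sets 0.993) than to its own group (0.991). Sca1-HGAL replicate 1 had the lowest mean correlations of the 8 arrays, 0.989 with its own group and 0.988 with the Control arrays. Results are therefore also given without these arrays where that matters.

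Of the 10 genes, Rcan3 and Nfatc2 had higher values on all 4 Sca1-HGAL arrays than on any Control array, and Nfatc3 had lower values on all 4. None of the 10 passed limma at a Benjamini-Hochberg adjusted p under 0.05 over all probe sets. Over all 21640 probe sets, 1 passed, or 0.00462%. The 3 non-overlapping genes are set beside 5.45% of all probe sets, with 2 higher against 3.15% and 1 lower against 2.3%. The same 3 genes were those with an unadjusted p under 0.05, set beside 9.59% of all probe sets (5.53% higher and 4.06% lower). At an adjusted p under 0.10, 1 of the 10 genes would pass, Rcan3, beside 0.0416% of all probe sets. The other 7 genes overlapped between the groups. The median log2 fold of the 10 genes was -0.02, with 4 positive and 6 negative, beside a median of 0.015 over all probe sets, of which 56.1% were positive and 43.9% negative. The genes were proposed with earlier results of this comparison known, so their counts describe these arrays and support nothing further. In bulk RNA of sorted cells, fewer cells of a type and less RNA per cell cannot be told apart.

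**Figure D1:**
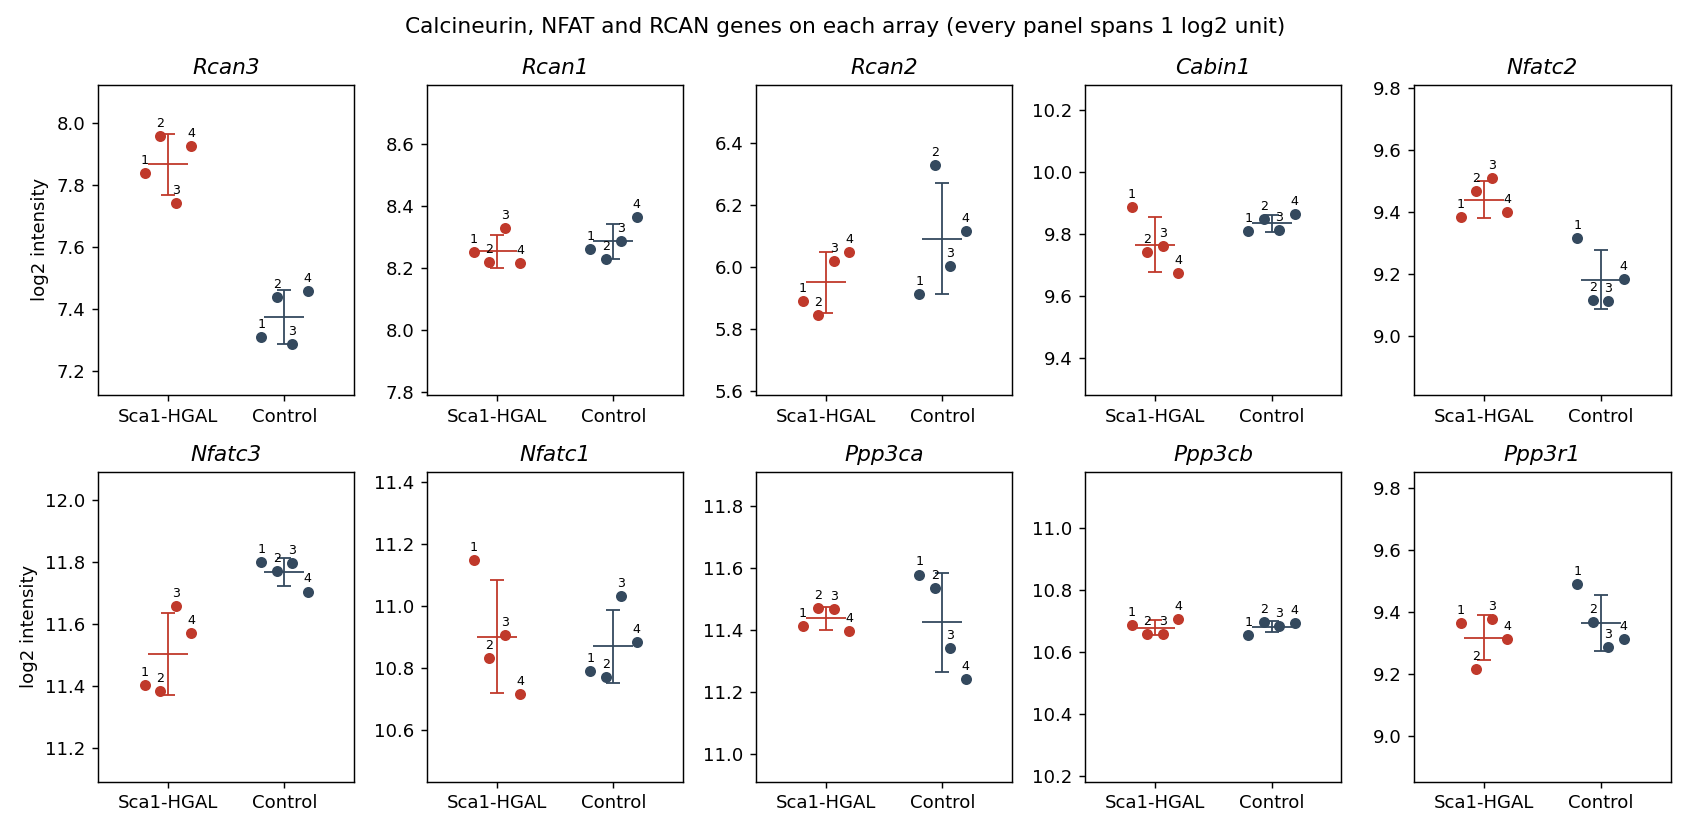
Log2 intensity (vertical axis) of the 10 genes on each Sca1-HGAL and Control array, with replicate numbers beside the points, and the mean and SD (n = 4 each) as bars. All 4 Sca1-HGAL points of Rcan3 and Nfatc2 lie above the Control points, all 4 of Nfatc3 lie below, and the groups of the other 7 genes overlap.

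Rcan3 encodes a member of the RCAN family of calcineurin-binding regulators. Its log2 intensity was 7.84, 7.96, 7.74 and 7.93 in Sca1-HGAL replicates 1 to 4, against 7.31, 7.44, 7.29 and 7.46 in Control replicates 1 to 4. The lowest Sca1-HGAL array, replicate 3, lay above the highest Control array, replicate 4. The mean was 7.87 ± 0.10 (SD, n = 4) in Sca1-HGAL arrays and 7.37 ± 0.09 (SD, n = 4) in Control arrays. This is a log2 fold (Sca1-HGAL minus Control) of 0.49 (SE 0.07, 95% interval 0.33 to 0.65), or 1.41-fold, with a limma adjusted p of 0.098. By p, Rcan3 ranked 9 of 21640 probe sets. It was called when Sca1-HGAL replicate 3 was left out (log2 fold 0.54, adjusted p = 0.0283) and with array quality weights (0.51, adjusted p = 0.0488). Its unadjusted limma p hardly changed without that replicate (3.76e-05, against 4.09e-05 as reported), while 40 probe sets passed instead of 1. Over 17 other settings the adjusted p of Rcan3 ran from 0.0283 to 0.306, and its groups stayed apart in all 17. Only a second quantile normalisation and median centring of the arrays changed its array values. The other settings could not have made separated groups overlap. Among the Control arrays, the Xist-high replicates 2 and 4 had the higher Rcan3 values. Without them the log2 fold was 0.57 (SE 0.09, adjusted p = 0.264).

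The other RCAN genes and Cabin1 had overlapping groups. Rcan1, the best studied calcineurin inhibitor of the family, had 8.25, 8.22, 8.33 and 8.22 in Sca1-HGAL arrays, against 8.26, 8.23, 8.29 and 8.37 in Control arrays. Its log2 fold was -0.03 (SE 0.06, 95% interval -0.16 to 0.10, limma adjusted p = 0.91). The arrays of both groups are interleaved, and the interval leaves out changes as large as that of Rcan3. Rcan2, a family member best known from brain, heart and skeletal muscle, had 5.89, 5.84, 6.02 and 6.05 in Sca1-HGAL arrays, against 5.91, 6.33, 6.00 and 6.11 in Control arrays. These values lie near log2 6, in the lower part of the array's range (percentile 21.9 of all probe sets by mean), so the Rcan2 probe set may carry little signal. Its log2 fold was -0.14 (SE 0.09, limma adjusted p = 0.68), and Control replicate 2 was the highest array. Without that array the log2 fold was -0.06, and without both Xist-high Control arrays it was -0.008 (SE 0.09, adjusted p = 0.99). Cabin1, a calcineurin-binding protein that also represses MEF2 factors, had 9.89, 9.74, 9.76 and 9.67 in Sca1-HGAL arrays, against 9.81, 9.85, 9.81 and 9.86 in Control arrays. Replicates 2 to 4 of Sca1-HGAL lay below all Control arrays and replicate 1 above them, for a log2 fold of -0.07 (limma, SE 0.06, adjusted p = 0.78). Without Sca1-HGAL replicate 1 the log2 fold was -0.11 and the groups no longer overlapped (adjusted p = 0.487).

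A shorter Rcan1 transcript from an internal start is known to be induced by calcineurin through clustered NFAT sites, which makes the letters before the RCAN starts of interest beside these values. The 250 bases before the only RefSeq start of Rcan3 (GRCm38.p6, chr4:135433806-135434055, minus strand) and before the downstream of 2 RefSeq starts of Rcan1 (chr16:92400079-92400328, minus strand) are printed 5′ to 3′. Capitals mark the NFAT core motif GGAAA on either strand, where the opposite strand reads TTTCC.
Rcan3: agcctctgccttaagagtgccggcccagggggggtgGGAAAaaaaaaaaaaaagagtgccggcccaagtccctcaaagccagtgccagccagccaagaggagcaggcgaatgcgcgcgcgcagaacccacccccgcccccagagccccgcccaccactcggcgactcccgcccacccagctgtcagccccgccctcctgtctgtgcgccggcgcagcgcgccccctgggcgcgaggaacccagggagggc
Rcan1: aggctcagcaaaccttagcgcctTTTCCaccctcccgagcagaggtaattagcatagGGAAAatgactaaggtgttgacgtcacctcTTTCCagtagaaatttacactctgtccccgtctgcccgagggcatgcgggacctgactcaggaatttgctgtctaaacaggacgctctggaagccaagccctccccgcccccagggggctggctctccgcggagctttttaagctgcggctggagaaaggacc
The Rcan3 stretch holds 1 match, at -214 bases from the start and followed by a run of A, and 4 GC boxes (GGGCGG on either strand). The Rcan1 stretch holds 3 matches in its upstream part, of which 2 extend to TGGAAA, and 1 GC box. The upstream Rcan1 start has no GGAAA match and 6 GC boxes. Of 32851 RefSeq promoters of this length, 55.6% hold at least 1 GGAAA match, 6.4% hold 3 or more, 18.6% hold TGGAAA and 32.7% a GC box. The TGGAAA matches are a subset of the GGAAA matches. The probe set reads Rcan1 as a whole and does not part its starts.

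The values of Nfatc2 and Nfatc3 lay on opposite sides of the Control arrays. Nfatc2 (NFAT1), a calcineurin-dependent factor of lymphocytes, had log2 intensities of 9.38, 9.47, 9.51 and 9.40 in Sca1-HGAL arrays, against 9.32, 9.12, 9.11 and 9.18 in Control arrays. All Sca1-HGAL arrays were higher, though replicate 1 lay only just above Control replicate 1. The mean was 9.44 ± 0.06 (SD, n = 4) in Sca1-HGAL arrays and 9.18 ± 0.09 (SD, n = 4) in Control arrays, a log2 fold of 0.26 (SE 0.07, 95% interval 0.11 to 0.41, limma adjusted p = 0.249). Without the Xist-high Control arrays it was 0.23 (SE 0.09, limma adjusted p = 0.599).

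Nfatc3 (NFAT4), another calcineurin-dependent factor, had 11.40, 11.38, 11.66 and 11.57 in Sca1-HGAL arrays, against 11.80, 11.77, 11.80 and 11.71 in Control arrays. All Sca1-HGAL arrays were lower, with replicates 1 and 2 farthest from the Control arrays and replicate 3 nearest. The mean was 11.50 ± 0.13 (SD, n = 4) in Sca1-HGAL arrays and 11.77 ± 0.04 (SD, n = 4) in Control arrays, a log2 fold of -0.26 (SE 0.07, 95% interval -0.43 to -0.10, limma adjusted p = 0.294). Without Sca1-HGAL replicate 3 it was -0.32 (adjusted p = 0.116), and without the Xist-high Control arrays -0.29 (adjusted p = 0.57). Neither Nfatc2 nor Nfatc3 passed in any of the 17 other settings, and the groups of both stayed apart in all 17. For these genes too, only the second quantile normalisation and median centring could have made the groups overlap.

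Because the pair had log2 folds of opposite sign, their difference was also formed within each array. The log2 intensity of Nfatc3 minus that of Nfatc2 was 2.02, 1.92, 2.15 and 2.17 in Sca1-HGAL arrays, against 2.48, 2.65, 2.68 and 2.52 in Control arrays. The mean difference was 2.06 ± 0.12 (SD, n = 4) in Sca1-HGAL arrays and 2.59 ± 0.10 (SD, n = 4) in Control arrays, a shift of -0.52. Any scaling common to an array cancels in this measure, while the absolute size of the difference has no meaning across probe sets. It was formed after the values of both genes were seen and is a description without a test.

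Nfatc1 (NFAT2), the family member tied to B-1a cells, had interleaved groups. It had 11.15, 10.83, 10.90 and 10.72 in Sca1-HGAL arrays, against 10.79, 10.77, 11.03 and 10.88 in Control arrays. Sca1-HGAL arrays included both the highest value, in replicate 1, and the lowest, in replicate 4. Its log2 fold was 0.03 (SE 0.10, 95% interval -0.19 to 0.25, limma adjusted p = 0.95) and took a negative sign in 5 of 17 other settings. Several of the 17 leave the log2 fold unchanged by design and could not turn its sign. Its pooled SD within groups, 0.154 on the log2 scale, was the largest of the 10 genes, beside a median of 0.115 over all probe sets.

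Both separated NFAT genes have 2 RefSeq starts, and the 250 bases before the upstream start of each are shown, as NFAT genes can themselves carry NFAT motifs. Nfatc2 is on the minus strand (GRCm38.p6, chr2:168601658-168601907) and Nfatc3 on the plus strand (chr8:106058568-106058817). Capitals again mark GGAAA, or TTTCC where the motif is on the opposite strand.
Nfatc2: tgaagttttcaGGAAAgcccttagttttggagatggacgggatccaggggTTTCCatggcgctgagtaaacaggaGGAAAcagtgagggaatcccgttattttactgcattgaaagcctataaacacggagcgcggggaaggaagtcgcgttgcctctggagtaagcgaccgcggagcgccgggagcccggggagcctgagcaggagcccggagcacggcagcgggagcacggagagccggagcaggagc
Nfatc3: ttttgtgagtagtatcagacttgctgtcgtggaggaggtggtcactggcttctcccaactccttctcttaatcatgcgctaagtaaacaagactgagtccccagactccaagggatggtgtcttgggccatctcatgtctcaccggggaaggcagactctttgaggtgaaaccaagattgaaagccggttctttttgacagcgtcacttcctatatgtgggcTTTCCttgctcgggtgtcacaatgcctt
The Nfatc2 stretch holds 3 matches, at -239, -200 and -175 bases from the start, the middle one extending to TGGAAA, and no GC box. Its downstream start has 1 match and 4 GC boxes. The Nfatc3 stretch holds 1 match, at -28 bases from the start, and its downstream start none. RefSeq promoters were matched for 8 of the 10 genes, 13 starts in all, and not for Nfatc1 and Ppp3ca. Among the others, Ppp3cb had 3 matches, the most upstream of 3 Rcan2 starts had 2, and Ppp3r1 and Cabin1 had none. A count of 3 thus occurred before Rcan1, Nfatc2 and Ppp3cb, 1 of which was among the separated genes.

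**Figure D2:**
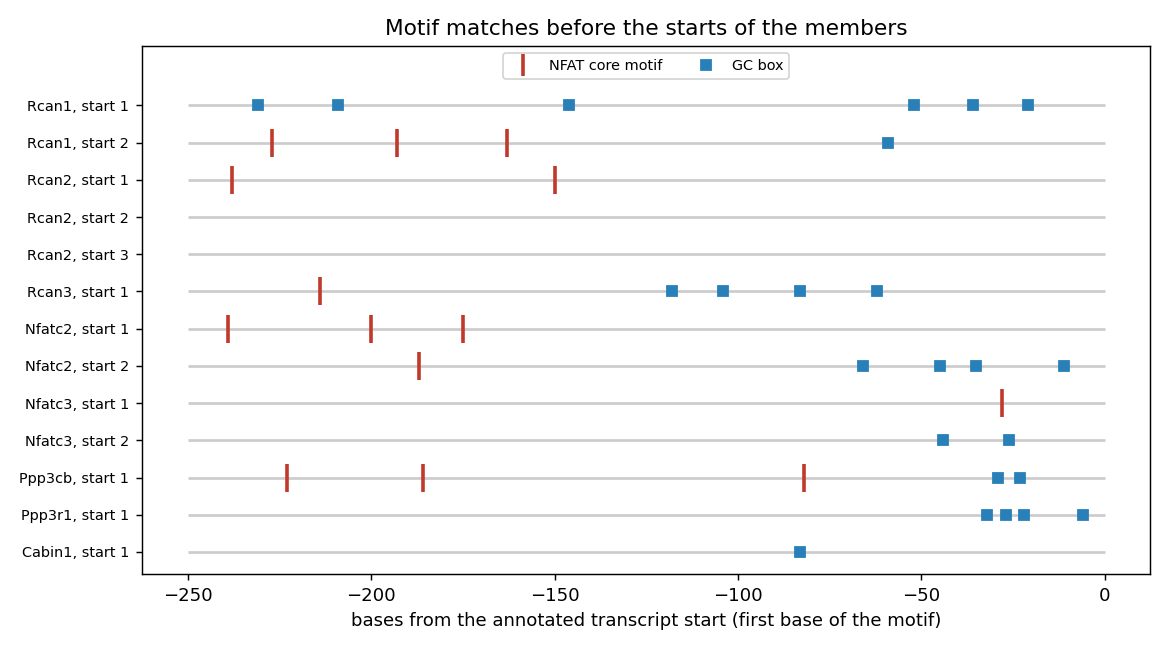
Positions of NFAT core motifs (red ticks) and GC boxes (blue squares) in the 250 bases before each RefSeq start of 8 of the genes, with the horizontal axis in bases from the start. Rcan1 start 2, Nfatc2 start 1 and Ppp3cb have 3 NFAT core matches each, and Rcan3 has 1.

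The calcineurin subunits had nearly the same levels in both groups. Ppp3ca, the alpha form of the catalytic subunit, had 11.41, 11.47, 11.47 and 11.39 in Sca1-HGAL arrays, against 11.58, 11.53, 11.34 and 11.24 in Control arrays. The Sca1-HGAL arrays all lay inside the Control range, and the log2 fold was 0.01 (SE 0.08, 95% interval -0.17 to 0.19, limma adjusted p = 0.98). Ppp3cb, the beta form, had 10.69, 10.66, 10.66 and 10.71 in Sca1-HGAL arrays, against 10.66, 10.70, 10.68 and 10.69 in Control arrays. All 8 arrays were close together, and the pooled SD of 0.021 put Ppp3cb at percentile 0.1 of all probe sets by spread. Its log2 fold was -0.004 (SE 0.05, 95% interval -0.12 to 0.11, limma adjusted p = 0.99). Ppp3r1, the calcium-binding B subunit, had 9.36, 9.22, 9.38 and 9.31 in Sca1-HGAL arrays, against 9.49, 9.37, 9.29 and 9.32 in Control arrays. Its log2 fold was -0.05 (SE 0.07, 95% interval -0.20 to 0.10, limma adjusted p = 0.87), with overlapping groups. For all 3 subunits the interval stayed within 0.2 of 0 on the log2 scale.

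**Figure D3:**
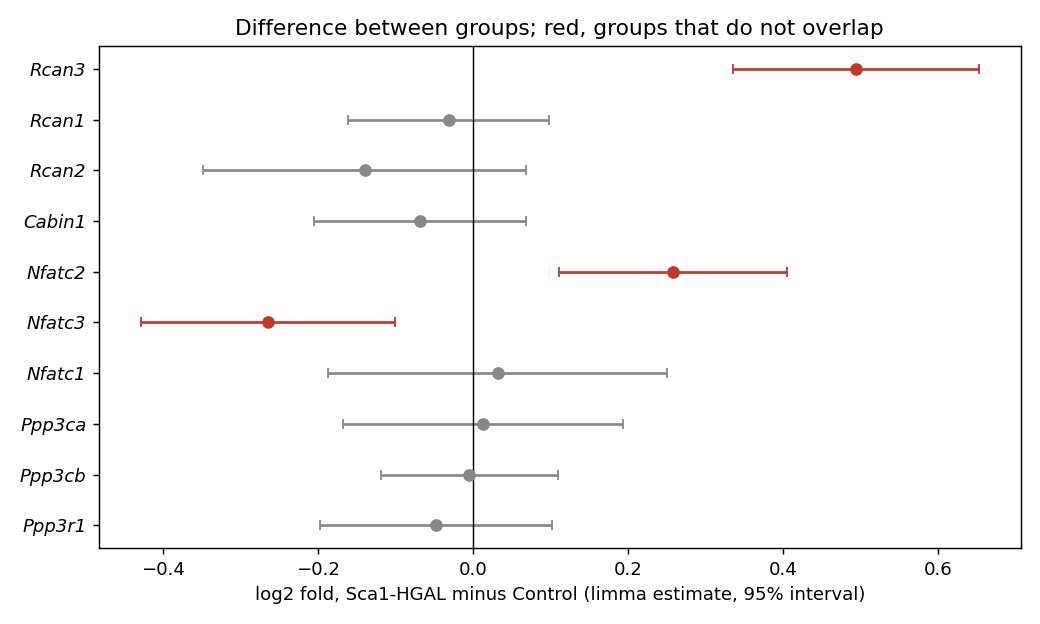
Log2 fold (Sca1-HGAL minus Control, horizontal axis) of the 10 genes with limma 95% intervals. Red marks Rcan3 at 0.49, Nfatc2 at 0.26 and Nfatc3 at -0.26, whose groups do not overlap, and the intervals of the 7 grey genes include 0.

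Settings other than the reported one moved the 3 separated genes little. Across 17 settings the log2 fold ran from 0.46 to 0.57 for Rcan3, from 0.22 to 0.30 for Nfatc2 and from -0.32 to -0.22 for Nfatc3. The replicate block and the changes of prior, rows, filter and probe set averaging leave these log2 folds unchanged by design. The ranges thus come from the normalisation, weight and array settings alone, and a sign could turn only in these. The signs of Rcan1, Rcan2, Ppp3r1 and Cabin1 stayed negative in all 17, with values between -0.20 and -0.005, while those of Nfatc1, Ppp3ca and Ppp3cb turned in some settings.

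**Figure D4:**
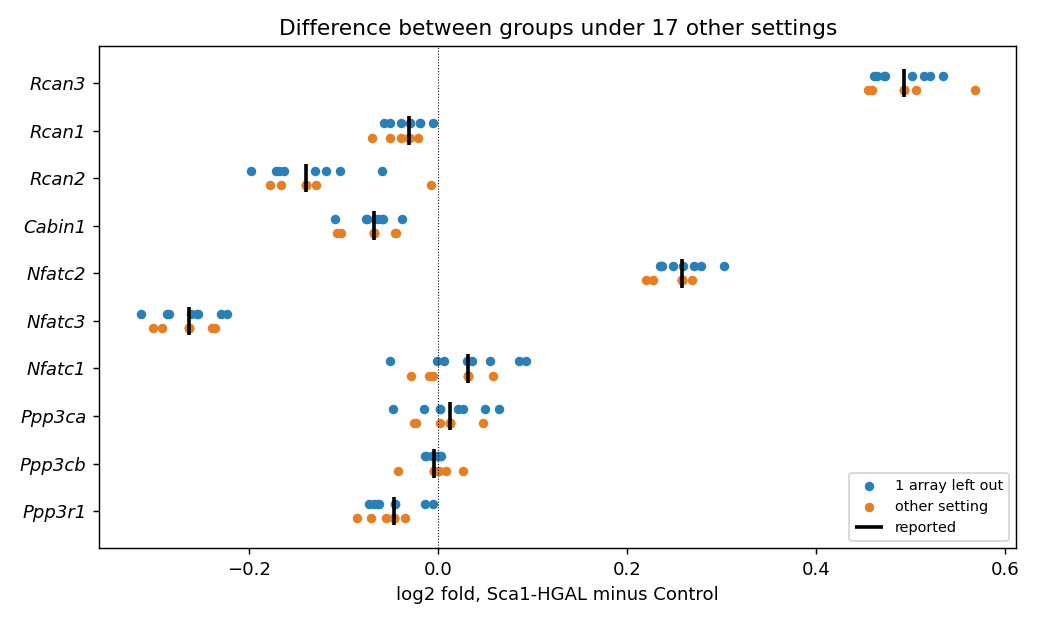
Log2 fold (Sca1-HGAL minus Control, horizontal axis) of each gene as reported (black bar), with 1 array left out (blue) and under the other settings (orange). Rcan3 stays between 0.46 and 0.57, Nfatc2 between 0.22 and 0.30 and Nfatc3 between -0.32 and -0.22, while Nfatc1, Ppp3ca and Ppp3cb lie on both sides of 0.

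Marker lists of B-cell subsets differed in level between the groups, but were chosen with earlier results of these data known. Their separation therefore describes these arrays and supports nothing further. The mean level of 8 B-1 and age-associated B cell genes, all measured, was 8.47 to 9.40 in Sca1-HGAL arrays and 8.17 to 8.34 in Control arrays, and 6 of the 8 did not overlap. That of 9 marginal zone B cell genes was 9.63 to 9.87 in Sca1-HGAL arrays and 10.15 to 10.47 in Control arrays, and 6 of the 9 did not overlap. The shares of all probe sets that did not overlap were 3.15% higher and 2.3% lower. The neutrophil list was at 6.48 to 7.78 in Sca1-HGAL arrays and 6.29 to 7.02 in Control arrays. The T cell list was at 6.71 to 7.75 and the macrophage and monocyte list at 7.46 to 8.01 in Sca1-HGAL arrays, against 7.02 to 7.44 and 7.46 to 7.93 in Control arrays. The NK cell list was at 5.84 to 6.56 in Sca1-HGAL arrays and 6.26 to 6.84 in Control arrays, and the plasmacytoid dendritic cell list at 8.85 to 9.04 and 9.04 to 9.52. Within the Sca1-HGAL group, replicate 3 had the highest marginal zone level and the lowest B-1 and age-associated level, and was also lowest for the T cell, NK cell, neutrophil, macrophage and monocyte, and plasmacytoid dendritic cell lists. The same array had the lowest Rcan3 value of its group and the highest Nfatc2 and Nfatc3 values. Within its group it was thus nearest to the Control arrays for Rcan3 and Nfatc3, and farthest from them for Nfatc2. No marker reads 0 on an array of this kind. The part of these cells in the values of Rcan3, Nfatc2 and Nfatc3 was not tested.

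The genes around calcineurin were read from 6 lists with 54 genes, of which 50 were measured. None passed at an adjusted p under 0.05 by limma, and 5 had an unadjusted p under 0.05, 1 higher and 4 lower, beside 9.59% of all probe sets. The groups did not overlap for 4 genes, all lower, beside 5.45% (2.3% lower). The median log2 fold of the 50 genes was -0.04, with 20 positive and 30 negative, beside 56.1% and 43.9% of all probe sets.

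Upstream of calcineurin, 7 of 9 measured genes of store-operated calcium entry had negative values (median log2 fold -0.065), beside 43.9% of all probe sets. Of the 9, 2 had an unadjusted p under 0.05 by limma, both lower, beside 4.06% of all probe sets. The groups of 1 gene did not overlap, also lower, beside 2.3%. Saraf, which restrains calcium entry through STIM1, had 7.60, 7.73, 7.87 and 7.83 in Sca1-HGAL arrays, against 8.25, 8.05, 8.24 and 7.99 in Control arrays. The groups were apart, with a log2 fold of -0.38 (limma, SE 0.09, adjusted p = 0.19). Orai2, a subunit of the calcium channel, had 10.04, 10.11, 10.45 and 9.77 in Sca1-HGAL arrays, against 10.32, 10.51, 10.86 and 10.54 in Control arrays. Sca1-HGAL replicate 3 overlapped with the Control arrays, and the log2 fold was -0.46 (SE 0.15, limma adjusted p = 0.36). Orai2 has more than 1 probe set, and their average gave a smaller log2 fold of -0.38 (SE 0.12, limma adjusted p = 0.342). Plcg2, the phospholipase that starts the calcium signal, had a log2 fold of 0.05 (adjusted p = 0.84), Stim1, the calcium sensor of the store, -0.07 (0.81) and the channel subunit Orai1 -0.09 (0.85).

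Of 7 measured calmodulin, immunophilin and anchor genes, 6 were positive, beside 56.1% of all probe sets. Their median log2 fold was 0.11, with no separated group. Akap5, an anchor that holds calcineurin near membranes, had 0.19 (SE 0.08, limma adjusted p = 0.52) and Chp2, a homologue of the calcineurin B subunit, 0.20 (SE 0.09, adjusted p = 0.53). Without the Xist-high Control arrays Akap5 had 0.09 (SE 0.10, adjusted p = 0.85) and Chp2 0.17, and without Control replicate 4 Chp2 had 0.13. The Chp2 probe set had a mean of only log2 5.94 and may carry little signal. Fkbp1a, the binding protein of the calcineurin-blocking drug tacrolimus, had a log2 fold of 0.05, and Ppia, that of cyclosporin, -0.14.

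Of 10 NFAT kinases and retention proteins, 9 were negative (median log2 fold -0.08), and 3 did not overlap between the groups, all lower. Over all probe sets, 43.9% were negative and 2.3% were lower without overlap. Dyrk1b, a kinase of the DYRK family that phosphorylates NFAT, had 9.17, 8.90, 9.16 and 8.82 in Sca1-HGAL arrays, against 9.18, 9.38, 9.37 and 9.39 in Control arrays. Replicates 1 and 3 of Sca1-HGAL lay just below Control replicate 1, and the log2 fold was -0.32 (SE 0.09, limma adjusted p = 0.32). After a second quantile normalisation its groups overlapped (-0.31, adjusted p = 0.306). The log2 fold of Gsk3a, a glycogen synthase kinase that drives NFAT out of the nucleus, was -0.15 (SE 0.06, adjusted p = 0.43), and that of Csnk1d, a casein kinase, -0.08 (SE 0.05, adjusted p = 0.65). Gsk3b had -0.11 (SE 0.07, adjusted p = 0.62) with overlapping groups.

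The remaining family members had small values and overlapping groups. For Nfatc4 the log2 fold was 0.17 (SE 0.10, limma adjusted p = 0.65), the osmotic stress factor Nfat5, which calcineurin does not control, -0.04 (SE 0.08, adjusted p = 0.91), and the catalytic subunit gene Ppp3cc 0.01 (adjusted p = 0.98). Without the Xist-high Control arrays Nfatc4 had 0.285 (SE 0.12, limma adjusted p = 0.601) with groups that did not overlap. Without them Nfat5 had -0.14 (limma adjusted p = 0.758). The Nfatc4 probe set had a mean of only log2 6.46 and may carry little signal. Ppp3r2, a B subunit known from testis, was at 4.34 in Sca1-HGAL arrays and 4.37 in Control arrays, in the lowest part of the scale. The MEF2 and CRTC factors, which calcineurin also activates, had a median of -0.06 over 6 measured genes. Mef2c, a factor of B-cell proliferation, had -0.14 (SE 0.06, adjusted p = 0.53) and Crtc2 -0.10 (SE 0.10, adjusted p = 0.80).

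Genes induced through NFAT in lymphocytes gave no common direction, with 8 of 14 measured genes positive, beside 56.1% of all probe sets. Their median log2 fold was 0.02, and none had an unadjusted p under 0.05 by limma. Il2, Il10, Fasl, Il4 and Ccl4 (positive) and Cd40lg (negative) had means of only 5.58 to 6.26 and may carry little signal. The count and median thus rest in part on dim probe sets. Of the other genes, Tnf, Egr2 and Ifng were positive, and Nr4a1, Ccl3, Irf4, Nr4a3 and Egr3 negative. Ifng was the dimmest of these, with a mean of log2 6.74. Tnf, an inflammatory cytokine, had 8.69, 8.70, 8.72 and 8.66 in Sca1-HGAL arrays, against 8.32, 8.42, 8.59 and 8.75 in Control arrays, a log2 fold of 0.17 (limma, SE 0.09, adjusted p = 0.58). It was 0.24 without the Xist-high Control arrays, where the groups did not overlap (adjusted p = 0.599), and 0.105 without Control replicate 1. Nr4a1, an orphan nuclear receptor induced by antigen receptor signals, had 10.45, 10.14, 11.85 and 11.36 in Sca1-HGAL arrays, against 12.21, 11.73, 11.84 and 10.80 in Control arrays. Both groups spread over more than 1 log2 unit, and the log2 fold was -0.69 (SE 0.39, adjusted p = 0.61). It was -1.07 without the Xist-high Control arrays (SE 0.44, adjusted p = 0.601) and ran from -0.99 without Sca1-HGAL replicate 3 to -0.42 without Sca1-HGAL replicate 2. Egr2 and Egr3, early growth response factors, had log2 folds of 0.13 and -0.002 (adjusted p = 0.86 and 1.00). Il10 was high on Sca1-HGAL replicate 1 alone, at 8.08, against 5.54 to 5.80 on the other Sca1-HGAL arrays and 5.53 to 6.04 on the Control arrays.

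**Figure D5:**
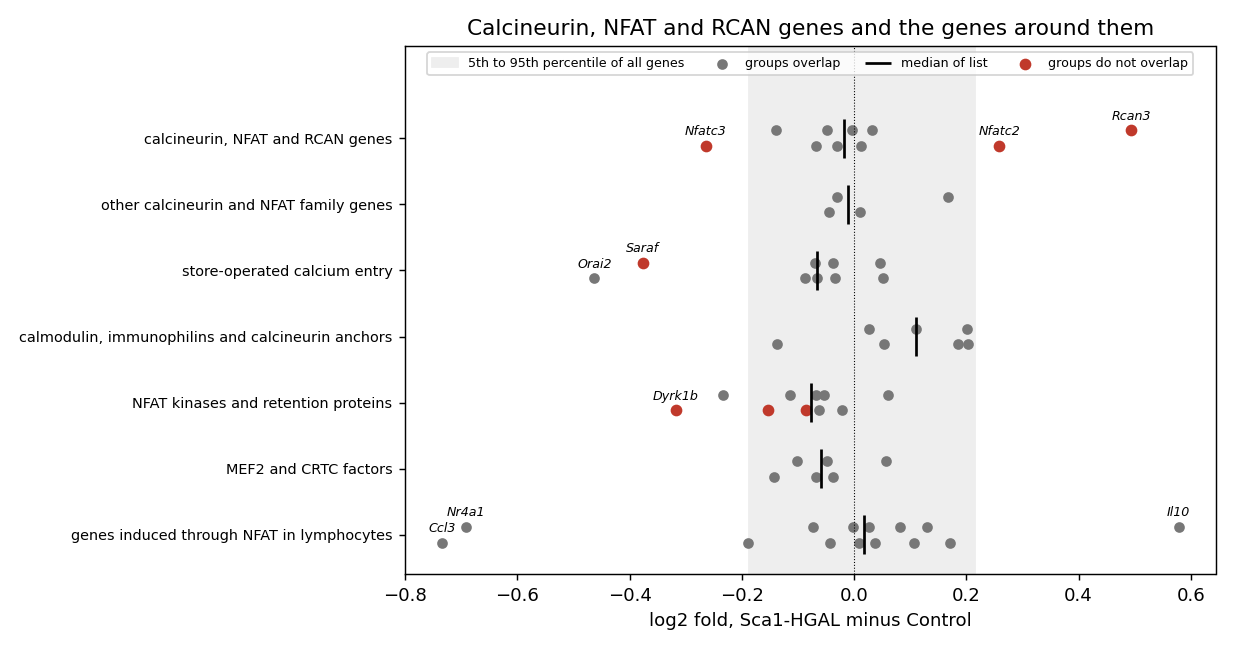
Log2 fold (Sca1-HGAL minus Control, horizontal axis) of the 10 genes and of 50 genes in 6 lists around them, with list medians as black bars, red points where the groups do not overlap, and a grey band from the 5th to the 95th percentile of all genes. The 10 genes have Rcan3, Nfatc2 and Nfatc3 outside the band, and the lists have Saraf, Orai2, Dyrk1b, Nr4a1, Ccl3 and Il10 labelled at their ends.

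Genes with the most similar course over the 8 arrays were ranked by the root mean square difference between log2 levels, each centred on the gene's mean, among 15723 genes with a mean of at least log2 6. For Rcan3 they were Mylip (0.079), Stx11 (0.079) and Fcgr2b (0.085), whose log2 folds were 0.41, 0.39 and 0.42, against a root mean square of 0.259 for Rcan3 itself. For Nfatc1 they were Rpn1 (0.052), Ppid (0.052) and Ogfod2 (0.056), against 0.134 for Nfatc1 itself. The list for Rcan3 follows mainly the difference between its groups, so the ranking itself selects genes of similar log2 fold. The list for Nfatc1 follows the spread between arrays, since its groups overlapped.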

How the data were processed

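Total RNA of 8 sorted B-cell samples was measured on arrays. Per the submitters' processing notes, the authors used RMA to make the deposited intensities. RMA subtracts background, brings arrays to a common distribution and sums up each probe set, so a change common to most genes is removed. Its version, and any annotation or build, were not given in the sources used here. Values ran from 4.94 to 24302 on a linear scale, and log2 was taken with no pseudocount and no filter. Groups and replicate numbers came from the titles.

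Of 34760 probe sets, 21640 had 1 symbol in the platform table, 1321 had several and 11799 were not in it. Those with 1 symbol entered limma (version 3.58.1, R version 4.3.3, functions lmFit and eBayes, no covariate, two-sided, Benjamini-Hochberg), and the procedure was tested on simulated data. The 10 genes and all lists were chosen with earlier results of these data known. Named from each pathway list were the 2 genes with the smallest p. Plcg2, Stim1, Orai1, Fkbp1a, Ppia, Csnk1d, Gsk3b, Ppp3cc, Ppp3r2, Egr2 and Egr3 were added after their values were seen. So were Ccl3, Ccl4, Il2, Il4, Il10, Fasl, Cd40lg, Ifng, Irf4 and Nr4a3. Promoters are RefSeq sequences (GRCm38.p6) credited to that build. Alternatives covered normalisation, filters, weights, the replicate block, prior, rows and arrays.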

Additional observations from a re-analysis of the deposited data

How the results depend on the processing

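Against 1 probe set called as reported, median centring called 3, array quality weights 12, the replicate block 6, averaging the probe sets of each gene 2, leaving out the Xist-high Control arrays 2 and an adjusted p under 0.10 called 9. Leaving out 1 array called 1 to 40, with 40 without Sca1-HGAL replicate 3. Of the 10 genes, array quality weights, an adjusted p under 0.10 and leaving out Sca1-HGAL replicate 3 each called 1, Rcan3, so that leaving out 1 array gave 0 to 1. The genes with an unadjusted p under 0.05 numbered 3 in each of the 17 settings, and those whose groups did not overlap 3 or 4. Only the second quantile normalisation and median centring could have lowered the count of non-overlapping genes. Replicate numbers did not pair the samples (correlations of deviations -0.160, 0.053, -0.134 and -0.010), and with the replicate block the adjusted p of Rcan3 was 0.153.

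Signs near 0 turned as follows, and the cause was not tested. Nfatc1 had a log2 fold of -0.006 with median centring, -0.029 with array weights, -0.010 without the Xist-high Control arrays, -0.001 without Control replicate 2 and, over all arrays left out in turn, -0.051 (Sca1-HGAL replicate 1) to 0.093. Ppp3ca had -0.026 with median centring, -0.023 without the Xist-high arrays, -0.015 without Control replicate 3 and, over all arrays left out in turn, -0.048 (Control replicate 4) to 0.064. Ppp3cb had 0.026 after a second quantile normalisation, 0.001 with array weights, 0.008 without the Xist-high arrays, 0.002 and 0.003 without Sca1-HGAL replicate 2 or 3 and 0 without Control replicate 2, with -0.014 as the lowest value without 1 array. Among pathway genes, where alternatives were added after seeing the data, Crtc2 ran from -0.144 to 0.002 and Nfat5 from -0.103 to 0.004 without 1 array, turning sign without Sca1-HGAL replicate 1 and Control replicate 1. None of the 50 pathway genes was called in any setting. Non-overlapping pathway genes numbered 4 as reported, 2 after a second quantile normalisation, 9 without the Xist-high arrays and 10 without Sca1-HGAL replicate 3. The values carry no detection calls, so signal over background is unknown for every probe set, the dim Rcan2 and Ppp3r2 among them. By mean, Rcan3 lay at percentile 56.0 of all probe sets.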
